A study of Mus musculus with 24 samples.

Results

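The genes of the interleukin-1 (IL-1) family were read in mouse lungs exposed to ozone (O3). The members were the cytokine genes Il1a, Il1b, Il18 and Il33, the antagonist gene Il1rn, the receptor genes Il1r1, Il1r2, Il1rl1 and Il1rap, and Casp1, and every probe set that the array's annotation gives to one of them alone was taken. Of the 10 genes, 9 had such a probe set, 13 probe sets in all among the 22644 of the array. All 13 passed the filter on low signals, as did 20537 probe sets with 11597 genes in all. No probe set was listed with Il1rl1 alone, and that gene, which encodes the receptor of IL-33, was not analysed here.

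The data were 24 Affymetrix MOE430A arrays, each of total RNA from the homogenized left lung of 1 male mouse, in 8 groups of 3 mice. Tnfr+/+ mice were C57BL/6J, and Tnfr-/- mice (B6.129S-Tnfrsf1a tm1Imx Tnfrsf1b tm1Imx/J) lacked the TNF receptors TNFR1 and TNFR2. Mice of both genotypes, 6 to 8 weeks old, breathed filtered air or 0.3 ppm O3 without a break for 24, 48 or 72 h. The study asked how O3 changes lung transcripts over time and which of these changes depend on TNFR. The deletions were constitutive, and the sources used here do not describe the wild-type mice as littermates. Mice of both lines were bought from Jackson Laboratories. In each genotype comparison the loss of the receptors and other differences between the lines cannot be told apart. A lung homogenate mixes all cells of the lung, so that fewer cells of a type and less RNA per cell cannot be told apart. The air mice of a genotype were the control of all 3 times of O3 in that genotype.

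Cytokines of the IL-1 family start and shape inflammation at barrier tissues. IL-1α and IL-1β signal through IL-1R1 with the accessory chain IL-1RAP, the antagonist IL-1RA (Il1rn) occupies the same receptor without a signal, and the decoy IL-1R2 binds IL-1 but cannot pass a signal on. IL-1β and IL-18 are made as precursors that caspase-1 cuts in the inflammasome, whereas IL-33 is stored in the nucleus of epithelial cells as an alarm signal for type 2 immunity and is released on injury.

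All values below are MAS5 signals after quantile normalization over the 24 arrays, in arbitrary units, listed for mice 1, 2 and 3 of a group. Fold changes are differences of mean log2 signal from 1 limma fit to all 24 arrays, given with the standard error (SE) or 95% interval. An adjusted p under 0.05 counts as a call, with Benjamini-Hochberg adjustment across the 20537 probe sets tested. The array of Tnfr+/+ O3 72 h mouse 1 stood apart: its mean correlation with the other arrays was 0.926, against 0.942 to 0.954 for the rest, and its Gapdh 3'/5' ratio was 4.45, against 0.89 to 1.74. Each member call that changed when it was left out is given with its value without it. The Gapdh ratio also moved with the groups: it was 1.28 to 1.43 in Tnfr-/- air and 0.89 to 1.22 in all Tnfr-/- O3 arrays, and at 24 h of O3 1.53 to 1.74 in Tnfr+/+ against 1.03 to 1.22 in Tnfr-/- arrays. At 48 h it was 1.30 to 1.33 in Tnfr+/+ against 1.01 to 1.13 in Tnfr-/- arrays. Of the targeted genes, 1 Tnfrsf1b probe set read 151 to 266 in the 12 Tnfr-/- arrays and 356 to 525 in the 12 Tnfr+/+ arrays, whereas the other read 104 to 222 and 108 to 293 and did not separate the genotypes (-0.14 by the mean of 4 exposures, adjusted p = 0.62). Tnfrsf1a was lower in Tnfr-/- lungs by the mean of 4 exposures (-0.41, adjusted p = 0.037) and was not called at any single exposure (adjusted p of 0.35 to 0.83). No alveolar type 2 cell marker of the 11 tested was called in any of the 17 comparisons, where at most 10.7% of all probe sets were called. Their summed signal was 142070 to 162850 over all arrays, and at each exposure it was wholly higher in Tnfr-/- lungs. It was 152760 to 161050 against 148630 to 150380 in air, and 154760 to 162850 against 142070 to 153400 at 24 h. At 48 h it was 157960 to 162500 against 154330 to 157600, and at 72 h 150560 to 159110 against 142960 to 148490. The cause of this difference was not tested. Some markers of other lung cells were called. At 72 h by the mean of both genotypes, 10.7% of all probe sets were called in either direction, and 1037 of the 20537 were called lower. There 4 of 10 endothelial, 3 of 10 fibroblast, 2 of 7 alveolar type 1 and 2 of 6 club cell markers were called lower. Without the array that stood apart these were 5, 3, 2 and 0, and 12.5% of all probe sets were called in either direction.

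4 of the members, Il33, Il1b, Il18 and Il1rn, were called in at least 1 comparison, and 5 of the 9 genes read were called in none. The stretches of 250 bases before the annotated starts of the 3 cytokine genes among the 4 are shown here because these genes carry most of the calls described below. They are from RefSeq on GRCm38.p6, 5′ to 3′ on the strand of the gene, with the letters TATAAA (or TTTATA, its reverse complement) in capitals. Il33 has 2 annotated starts with different sequences.
Il1b, chr2:129371140-129371389, minus strand: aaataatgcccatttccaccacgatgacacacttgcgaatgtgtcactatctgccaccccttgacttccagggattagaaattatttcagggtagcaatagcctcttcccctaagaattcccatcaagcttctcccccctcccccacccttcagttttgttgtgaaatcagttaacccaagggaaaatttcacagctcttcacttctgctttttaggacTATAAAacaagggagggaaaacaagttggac
Il18, chr9:50554450-50554699, plus strand: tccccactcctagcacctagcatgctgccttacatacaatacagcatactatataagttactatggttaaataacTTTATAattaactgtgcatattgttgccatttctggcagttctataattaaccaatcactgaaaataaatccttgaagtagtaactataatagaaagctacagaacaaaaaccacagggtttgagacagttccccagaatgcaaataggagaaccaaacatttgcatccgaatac
Il33, first start, chr19:29924863-29925112, plus strand: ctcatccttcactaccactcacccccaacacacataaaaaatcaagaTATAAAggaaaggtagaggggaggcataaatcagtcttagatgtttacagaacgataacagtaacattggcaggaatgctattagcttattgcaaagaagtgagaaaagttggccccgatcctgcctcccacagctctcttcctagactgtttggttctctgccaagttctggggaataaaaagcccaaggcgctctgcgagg
Il33, second start, chr19:29945540-29945789, plus strand: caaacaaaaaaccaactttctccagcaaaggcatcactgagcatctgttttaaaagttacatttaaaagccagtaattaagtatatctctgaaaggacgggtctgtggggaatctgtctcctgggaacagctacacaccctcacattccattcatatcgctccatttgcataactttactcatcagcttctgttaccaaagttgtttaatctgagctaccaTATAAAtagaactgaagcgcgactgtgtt
TATAAA stood 31 bases before the start of Il1b and 29 bases before the second start of Il33. At the first start of Il33 it stood 203 bases before, and at Il18 only the reverse complement was found, 175 bases before. On either strand, 12.4% of the 32851 mouse promoter stretches of the same length hold TATAAA. None of the 4 stretches held TGANTCA, the letters of the AP-1 site, which 6.75% of all stretches hold on either strand. Of the 3 stretches of Il1rn, that of the first start (chr2:24336610-24336859) had TGAGTCA 141 bases before, and none had TATAAA. These matches describe letters only.

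Il33, the gene of the epithelial alarm cytokine on chromosome 19 (chr19:29925113-29960718), rose with O3 at 48 and 72 h in Tnfr-/- lungs, 2.10-fold and 2.01-fold over air, and rose at both times by the mean of both genotypes. In Tnfr+/+ lungs its signal was 1419, 1642 and 1291 in air. After O3 it was 1814, 1515 and 1966 after 24 h, 2305, 2066 and 1990 after 48 h, and 1608, 2464 and 2435 after 72 h. In Tnfr+/+ lungs all 3 mice at 48 h were above all air mice, whereas at 72 h mouse 1, whose array stood apart, read within the air range. The Tnfr-/- mice had Il33 at 1252, 1296 and 1539 in air, 2589, 1887 and 2192 after 24 h, 2498, 3096 and 2998 after 48 h, and 2822, 2948 and 2432 after 72 h. Every Tnfr-/- mouse in O3 was above every Tnfr-/- mouse in air. The Gapdh 3'/5' ratio also did not overlap between these arrays (0.89 to 1.22 in O3, 1.28 to 1.43 in air), and its part in the rise was not tested.

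For Il33 over air in Tnfr-/- lungs the log2 fold change was 0.70 (SE 0.17) at 24 h with an adjusted p of 0.055, 1.07 at 48 h with an adjusted p of 0.0012, and 1.01 at 72 h with an adjusted p of 0.0017. In Tnfr+/+ lungs it was 0.28, 0.55 and 0.56 (SE 0.17) at the 3 times, with adjusted p of 0.95, 0.15 and 0.085. Averaged over the genotypes it was 0.49 at 24 h (95% interval 0.24 to 0.75, adjusted p = 0.055), 0.81 at 48 h (0.56 to 1.07, adjusted p = 0.00032) and 0.78 at 72 h (0.53 to 1.04, adjusted p = 0.00034). The rise was not shown to differ between the genotypes. The interaction was 0.42, 0.52 and 0.45 at 24, 48 and 72 h, with adjusted p of 0.86, 0.90 and 0.87. All 4 calls of Il33 held under 8 other settings of the limma fit and on leaving out any 1 of the 24 arrays, whereas the methods' t-test, run on single groups, called neither time in Tnfr-/- lungs after Benjamini-Hochberg adjustment. Without the Tnfr+/+ 72 h array that stood apart, the log2 fold change at 72 h in Tnfr+/+ lungs was 0.76 with an adjusted p of 0.017, that at 24 h in Tnfr-/- lungs 0.70 with an adjusted p of 0.017, and that at 24 h by the mean of both genotypes 0.49 with an adjusted p of 0.017. With array quality weights, Il33 was also called in Tnfr+/+ lungs at 48 h (0.62, adjusted p = 0.031) and 72 h (0.75, adjusted p = 0.0091), and at 24 h in Tnfr-/- lungs (0.68, adjusted p = 0.011) and by the mean of both genotypes (0.51, adjusted p = 0.0086).

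Between the genotypes Il33 was not called after adjustment. In air the log2 fold change of Tnfr-/- over Tnfr+/+ lungs was -0.09, and after O3 it was 0.33 at 24 h, 0.43 at 48 h and 0.36 at 72 h, with adjusted p of 0.41, 0.38 and 0.45 after O3. At 48 h the lowest Tnfr-/- mouse, at 2498, was above the highest Tnfr+/+ mouse, at 2305. The Gapdh 3'/5' ratio did not overlap between these groups either (1.01 to 1.13 in Tnfr-/-, 1.30 to 1.33 in Tnfr+/+ arrays). Its part in this difference was not tested. The log2 fold change of Il33 by the mean of 4 exposures was 0.26 (95% interval 0.08 to 0.44, adjusted p = 0.082). The difference at 48 h and the mean of 4 exposures did pass an unadjusted p of 0.05 in limma. Without the array that stood apart, the genotype difference was 0.15 at 72 h (adjusted p = 0.92) and 0.20 by the mean of 4 exposures (adjusted p = 0.11). By mean level the order was Tnfr-/- at 48, 72 and 24 h, then Tnfr+/+ at 72, 48 and 24 h, then Tnfr+/+ air and Tnfr-/- air, and no neighbours in that order differed by more than the arm of the 95% interval for a difference of 2 groups, 0.36 on the log2 scale.

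Il1b, the gene of the main secreted inflammatory IL-1 on chromosome 2 (chr2:129364569-129371164), rose early in Tnfr-/- lungs and by 72 h when both genotypes were averaged. In Tnfr+/+ lungs it read 309, 369 and 362 in air, 303, 348 and 264 after 24 h, 453, 347 and 308 after 48 h, and 550, 542 and 480 after 72 h. The Tnfr+/+ mice at 24 and 48 h overlapped those in air, and those at 72 h were all above them. The Tnfr-/- mice had Il1b at 283, 252 and 314 in air, 508, 1118 and 522 after 24 h, 443, 411 and 430 after 48 h, and 509, 494 and 483 after 72 h. Every Tnfr-/- mouse in O3 was above every Tnfr-/- mouse in air, and mouse 2 at 24 h was far above the others of its group, whose mean was 716 ± 348 (SD, n = 3 mice).

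The log2 fold change of Il1b over air in Tnfr-/- lungs was 1.24 at 24 h (SE 0.22, adjusted p = 0.0069), 0.60 at 48 h (adjusted p = 0.14) and 0.81 at 72 h (adjusted p = 0.045). The Tnfr+/+ changes were -0.19, 0.08 and 0.60 at the 3 times, with an adjusted p of 0.15 for the last, which was 0.56 with an adjusted p of 0.28 without the array that stood apart. By the mean of both genotypes the change at 72 h was 0.71 (95% interval 0.38 to 1.04, adjusted p = 0.0066), and it was 0.69 with an adjusted p of 0.013 without the array that stood apart. At 24 h of O3, Il1b was higher in Tnfr-/- than in Tnfr+/+ lungs, with no overlap and a log2 fold change of 1.14 (95% interval 0.67 to 1.60, adjusted p = 0.019). The Gapdh 3'/5' ratio did not overlap between the same groups either (1.03 to 1.22 in Tnfr-/-, 1.53 to 1.74 in Tnfr+/+ arrays), nor between Tnfr-/- air and Tnfr-/- O3 arrays, and its part in these differences was not tested. The genotype difference was -0.29 in air, 0.23 after 48 h and -0.08 after 72 h, none of them called. The interaction at 24 h was 1.43 with an unadjusted p of 0.00023 and an adjusted p of 0.29, so that a genotype difference in the response to O3 was not called.

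Some calls of Il1b rest on few arrays. With array quality weights the change at 48 h in Tnfr-/- lungs was called as well (0.61, adjusted p = 0.045). Without mouse 2 of the Tnfr-/- 24 h group the change at 24 h was 0.87 with an adjusted p of 0.015, the genotype difference at 24 h was 0.77 with an adjusted p of 0.049, and 3 changes of Il1b passed that had not: 0.60 at 72 h in Tnfr+/+ lungs (adjusted p = 0.028), 0.61 at 48 h in Tnfr-/- lungs (adjusted p = 0.022) and 0.34 at 48 h by the mean of both genotypes (adjusted p = 0.047). The genotype call at 24 h ended without Tnfr+/+ O3 24 h mouse 1 or mouse 3, with an adjusted p of up to 0.067. The call at 72 h in Tnfr-/- lungs ended on leaving out any 1 of 17 arrays, with an adjusted p of up to 0.15. These were every Tnfr-/- array outside the 24 h group, the 3 of Tnfr+/+ air, mice 1 and 3 of Tnfr+/+ 24 h, mouse 2 of Tnfr+/+ 48 h and mice 2 and 3 of Tnfr+/+ 72 h. With only the arrays of the groups compared, the calls of Il1b at 24 h ended, with an adjusted p of 0.22 over air and 0.24 between the genotypes, and so did that at 72 h in Tnfr-/- lungs. By mean level, Tnfr-/- O3 24 h was highest and Tnfr-/- air lowest, and no neighbours in the order of the 8 groups differed by more than the arm of the 95% interval, 0.46.

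Markers of neutrophils, cells that carry Il1b transcripts, were read beside it. Of 14 listed, 11 were tested, and 1 of them, Lcn2, was called in any of the 17 comparisons. The summed signal of the 11 in Tnfr-/- lungs was 3831 to 4337 in air and 6112 to 9017 at 24 h, and the highest of these was the mouse with Il1b at 1118. In Tnfr+/+ lungs the sum was 6163 to 7008 in air and 4315 to 5346 at 24 h. None of the 11 was at the lowest signal of 1 on any array. At 24 h the sum was wholly above air in Tnfr-/- and wholly below air in Tnfr+/+ lungs. Lcn2, which is not particular to neutrophils, made up a large part of the rise in Tnfr-/- lungs. It read 854 to 1059 in Tnfr-/- air and 2685 to 3734 at 24 h. In Tnfr+/+ lungs Lcn2 read 919 to 1344 in air and 1471 to 1931 at 24 h, a rise while the sum fell. The part of neutrophils in the difference was not tested.

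Il18, a cytokine gene on chromosome 9 (chr9:50554700-50581841) whose product drives interferon-γ, was higher in Tnfr-/- than in Tnfr+/+ lungs by the mean of 4 exposures and rose at 72 h of O3 by the mean of both genotypes. In Tnfr+/+ lungs it read 671, 401 and 416 in air, 538, 465 and 375 after 24 h, 541, 654 and 446 after 48 h, and 737, 631 and 556 after 72 h. These groups all overlapped one another except that 72 h was wholly above 24 h. The signal in Tnfr-/- lungs was 620, 731 and 655 in air, 636, 723 and 599 after 24 h, 845, 987 and 785 after 48 h, and 905, 1138 and 1061 after 72 h. The genotypes overlapped in air through Tnfr+/+ mouse 1 at 671, and did not overlap at 24, 48 or 72 h. The Gapdh 3'/5' ratio also did not overlap between the genotypes at 24 h (1.03 to 1.22 in Tnfr-/-, 1.53 to 1.74 in Tnfr+/+ arrays). At 48 h it was 1.01 to 1.13 against 1.30 to 1.33, and in air and at 72 h it overlapped. Its part in the genotype difference of Il18 was not tested.

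The log2 fold change of Il18 between Tnfr-/- and Tnfr+/+ lungs was 0.47 in air, 0.52 at 24 h, 0.68 at 48 h and 0.69 at 72 h (SE 0.20 each), with adjusted p of 0.61, 0.23, 0.21 and 0.21. The mean of the 4 exposures was 0.59 (95% interval 0.39 to 0.80, adjusted p = 0.0023), and it was called under all 8 other settings of the limma fit and on leaving out any 1 array. The interaction was 0.05, 0.22 and 0.23 at the 3 times and was not called. Over air, Il18 changed by 0.51 at 72 h in the mean of both genotypes (95% interval 0.22 to 0.80, adjusted p = 0.022), by 0.40 in Tnfr+/+ lungs (adjusted p = 0.29) and by 0.63 in Tnfr-/- lungs (adjusted p = 0.085). With array quality weights that in Tnfr-/- lungs was called (0.65, adjusted p = 0.034). Without the array that stood apart, the change in Tnfr+/+ lungs was 0.30 (adjusted p = 0.55), the genotype difference at 72 h 0.80 (adjusted p = 0.27) and the mean of the 4 exposures 0.62 (adjusted p = 0.0018). The call at 72 h ended with only the arrays compared (adjusted p = 0.070) and without Tnfr+/+ air mouse 2 or 3, Tnfr-/- air mouse 1 or Tnfr-/- 72 h mouse 2 (adjusted p up to 0.063), and held without the array that stood apart (0.46, adjusted p = 0.044). In the order of mean levels the 4 Tnfr-/- groups stood above the 4 Tnfr+/+ groups, and no neighbours differed by more than the arm of the 95% interval, 0.41.

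**Figure D1:**
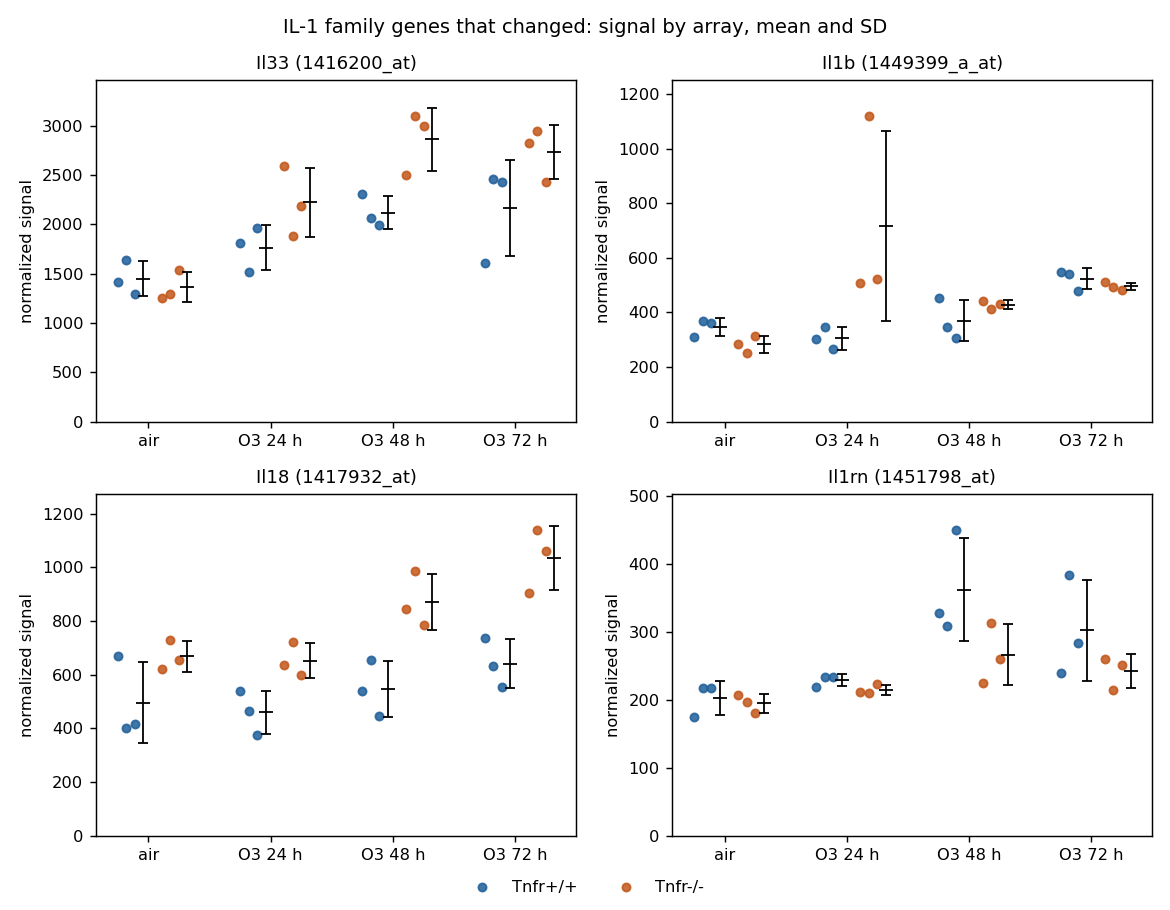
Quantile-normalized MAS5 signal (arbitrary units, y axis from 0) of Il33, Il1b, Il18 and the called Il1rn probe set by exposure, 1 point per mouse, blue for Tnfr+/+ and orange for Tnfr-/-, with a black mean and SD bar (n = 3) at the right of each group. Il33 is above the air mice in all Tnfr-/- mice in O3, the Tnfr-/- mouse at 1118 sets the wide bar of Il1b at 24 h, and Il18 does not overlap between the genotypes at 24, 48 or 72 h.

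Il1rn, the gene of the IL-1 receptor antagonist on chromosome 2 (chr2:24336860-24351491), was read by 3 probe sets that disagreed. The first rose at 48 h in Tnfr+/+ lungs and, by the mean of both genotypes, at 48 and 72 h, and the other two were called in no comparison. In Tnfr+/+ lungs this first probe set read 174, 217 and 217 in air, 218, 234 and 234 after 24 h, 329, 309 and 450 after 48 h, and 240, 384 and 283 after 72 h. Tnfr-/- mice had 207, 198 and 180 in air, 212, 209 and 223 after 24 h, 225, 314 and 260 after 48 h, and 261, 214 and 252 after 72 h. In both genotypes every mouse in O3 was above every air mouse. Between Tnfr-/- air and Tnfr-/- O3 arrays the Gapdh 3'/5' ratio did not overlap either, and its part was not tested.

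The log2 fold change of the called Il1rn probe set in Tnfr+/+ lungs was 0.18 at 24 h, 0.82 at 48 h (SE 0.17, adjusted p = 0.020) and 0.56 at 72 h (adjusted p = 0.088). The Tnfr-/- changes were 0.14, 0.44 and 0.31, with adjusted p of 0.81, 0.17 and 0.38. The mean of both genotypes was 0.16 at 24 h (adjusted p = 0.69), 0.63 at 48 h (95% interval 0.38 to 0.89, adjusted p = 0.0031) and 0.43 at 72 h (95% interval 0.18 to 0.69, adjusted p = 0.028). Between the genotypes the mean of 4 exposures was -0.22 with an adjusted p of 0.14. The call at 48 h in Tnfr+/+ lungs ended without Tnfr+/+ air mouse 1 or 48 h mouse 3 (adjusted p up to 0.10) and with only the arrays compared (0.31). That at 72 h ended without Tnfr+/+ air mouse 1, Tnfr+/+ 72 h mouse 2, Tnfr-/- air mouse 3 or Tnfr-/- 72 h mouse 1 or 3 (adjusted p up to 0.073) and with only the arrays compared (0.083). Without the array that stood apart, the change at 72 h was 0.71 in Tnfr+/+ lungs (adjusted p = 0.041) and 0.51 by the mean of both genotypes (adjusted p = 0.0094), and the mean of 4 exposures between the genotypes was -0.26 (adjusted p = 0.071). With array quality weights, the changes at 72 h in Tnfr+/+ lungs (0.66, adjusted p = 0.025) and at 48 h in Tnfr-/- lungs (0.43, adjusted p = 0.047) were called. In the order of means the Tnfr+/+ groups at 48 and 72 h led, and no neighbours differed by more than the arm of the 95% interval, 0.36.

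The second probe set of Il1rn was near the lower end of the array's range and reached the 20th percentile in 14 of 24 arrays. It read 43.2, 142 and 180 in Tnfr+/+ air, 37.3, 39.0 and 48.0 after 24 h, 47.4, 194 and 65.0 after 48 h, and 88.3, 210 and 41.9 after 72 h. The Tnfr-/- values were 37.6, 44.6 and 55.1 in air, 152, 140 and 128 after 24 h, 45.6, 144 and 171 after 48 h, and 151, 59.3 and 39.7 after 72 h. At 24 h of O3 the genotypes did not overlap and the log2 fold change was 1.76 (95% interval 0.38 to 3.14), with an adjusted p of 0.22. The interaction at 24 h was 2.96 with an adjusted p of 0.57. The remaining Il1rn probe set read 116 to 278 in Tnfr+/+ and 138 to 390 in Tnfr-/- arrays, and its lowest adjusted p in any comparison was 0.32.

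Alveolar macrophage markers, some of which rose with Il1rn, were read beside it. Of 14 listed 11 were tested, and 4 rose at 48 and 72 h by the mean of both genotypes, where 7.32% and 10.7% of all probe sets were called: Marco, a scavenger receptor, Chil3, Mrc1 and Ctsk. At 48 h they had risen by 1.47, 1.05, 0.67 and 1.35 on the log2 scale. Without the array that stood apart the 4 were called at 72 h as well, and so was Itgax (0.42, adjusted p = 0.022), named after its value was seen. The summed signal of the 11 was 9766 to 12938 in Tnfr+/+ air and 14867 to 33102 at 48 h, and 11491 to 12525 in Tnfr-/- air and 20601 to 22681 at 48 h. None of the 11 was at the lowest signal of 1 on any array, and the part of these cells in the rise of Il1rn was not tested.

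Il1a, the gene of the IL-1 that cells release when damaged, read low, between the 10th and the 33.7th percentile of its arrays. In Tnfr+/+ lungs it read 82.6, 18.4 and 117 in air and 110, 101 and 105 at 72 h, and in Tnfr-/- lungs 94.8, 51.0 and 54.6 in air and 75.5, 82.2 and 73.3 at 72 h. Those groups overlapped within each genotype. The largest of its changes over air, 0.90 at 72 h in Tnfr+/+ lungs, had a 95% interval from -0.21 to 2.01 and an adjusted p of 0.39, and was 0.87 (adjusted p = 0.53) without the array that stood apart. The spread between mice of a group was wide for this probe set, with a residual SD of 0.69 on the log2 scale.

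Among the receptors, Il1r1 and Il1r2 had their lowest group means in Tnfr-/- air. Il1r1, the signalling receptor of IL-1, read 347, 214 and 235 in Tnfr+/+ air and 209, 112 and 80.1 in Tnfr-/- air. After O3 it read 378, 355 and 394 after 24 h, 367, 374 and 340 after 48 h, and 214, 238 and 292 after 72 h in Tnfr-/- lungs, each group wholly above Tnfr-/- air. In Tnfr+/+ lungs it read 311, 548 and 402 after 24 h, 366, 316 and 67.9 after 48 h, and 57.2, 345 and 265 after 72 h, all overlapping air. The reading of 57.2 is from the array that stood apart, and without it the change at 72 h in Tnfr+/+ lungs turned from -0.58 (adjusted p = 0.67) to 0.22 (adjusted p = 0.90). The log2 fold change in Tnfr-/- lungs was 1.61 at 24 h (95% interval 0.38 to 2.83), 1.55 at 48 h (0.32 to 2.77) and 0.99 at 72 h, with adjusted p of 0.23, 0.16 and 0.42, and the difference of the genotypes in air was -1.07 with an adjusted p of 0.79. When arrays were weighted by quality, Il1r1 was called in Tnfr-/- lungs at 24 h (1.71, adjusted p = 0.021) and at 48 h (1.64, adjusted p = 0.0066). By the mean of both genotypes it was then called at 24 h (1.11, adjusted p = 0.038) and 48 h (0.84, adjusted p = 0.047). The share of all probe sets called with these weights is not given here. The Gapdh 3'/5' ratio did not overlap between Tnfr-/- air (1.28 to 1.43) and Tnfr-/- O3 arrays (0.89 to 1.22), and its part was not tested.

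Il1r2, the decoy receptor, read 122, 208 and 106 in Tnfr+/+ air and 66.5, 88.5 and 81.9 in Tnfr-/- air, with no overlap. The genotype difference in air was -0.83 (95% interval -1.47 to -0.18) with an adjusted p of 0.52. In Tnfr-/- lungs it read 104, 147 and 135 after 24 h, 120, 65.0 and 134 after 48 h, and 121, 144 and 190 after 72 h, the first and the last of these groups wholly above air. The log2 fold changes at the 3 times were 0.70, 0.37 and 0.93, with adjusted p of 0.34, 0.57 and 0.11. Here too the Gapdh 3'/5' ratio did not overlap between Tnfr-/- air and Tnfr-/- O3 arrays, and its part was not tested. The Tnfr+/+ values after O3, 79.7 to 173, overlapped air at each time. With array quality weights, Il1r2 was called at 72 h by the mean of both genotypes (0.66, adjusted p = 0.043), against 0.54 (adjusted p = 0.12) with all arrays weighted alike and 0.60 (adjusted p = 0.10) without the array that stood apart.

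Il1rap, the accessory chain shared by the receptors of IL-1 and IL-33, was read by 3 probe sets, none of them called in any comparison. They read 160 to 381, 169 to 437 and 39.0 to 94.9 over the 24 arrays. Their lowest adjusted p in any comparison were 0.64, 0.40 and 0.37. By the mean of both genotypes at 72 h their log2 fold changes were -0.01 (95% interval -0.49 to 0.46), 0.11 (-0.21 to 0.44) and -0.06 (-0.44 to 0.31). In that comparison alone, a change of more than 0.49 in size lay outside all 3 intervals. Without the array that stood apart the changes were 0.15 (-0.32 to 0.61), 0.07 (-0.27 to 0.42) and -0.02 (-0.42 to 0.38), and the first interval reached past that size. At 24 h in Tnfr+/+ lungs the second probe set changed by 0.56 (0.10 to 1.02, adjusted p = 0.70).

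Casp1, the protease that matures IL-1β and IL-18, read 76.3, 91.4 and 117 in Tnfr+/+ air and 123, 128 and 111 at 72 h. In Tnfr-/- lungs it read 126, 112 and 103 in air and 101, 154 and 156 at 72 h. Air and 72 h overlapped in both genotypes. Its change at 72 h by the mean of both genotypes was 0.31 (95% interval 0.02 to 0.60) with an adjusted p of 0.17, and 0.30 (-0.01 to 0.61, adjusted p = 0.21) without the array that stood apart.

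**Figure D2:**
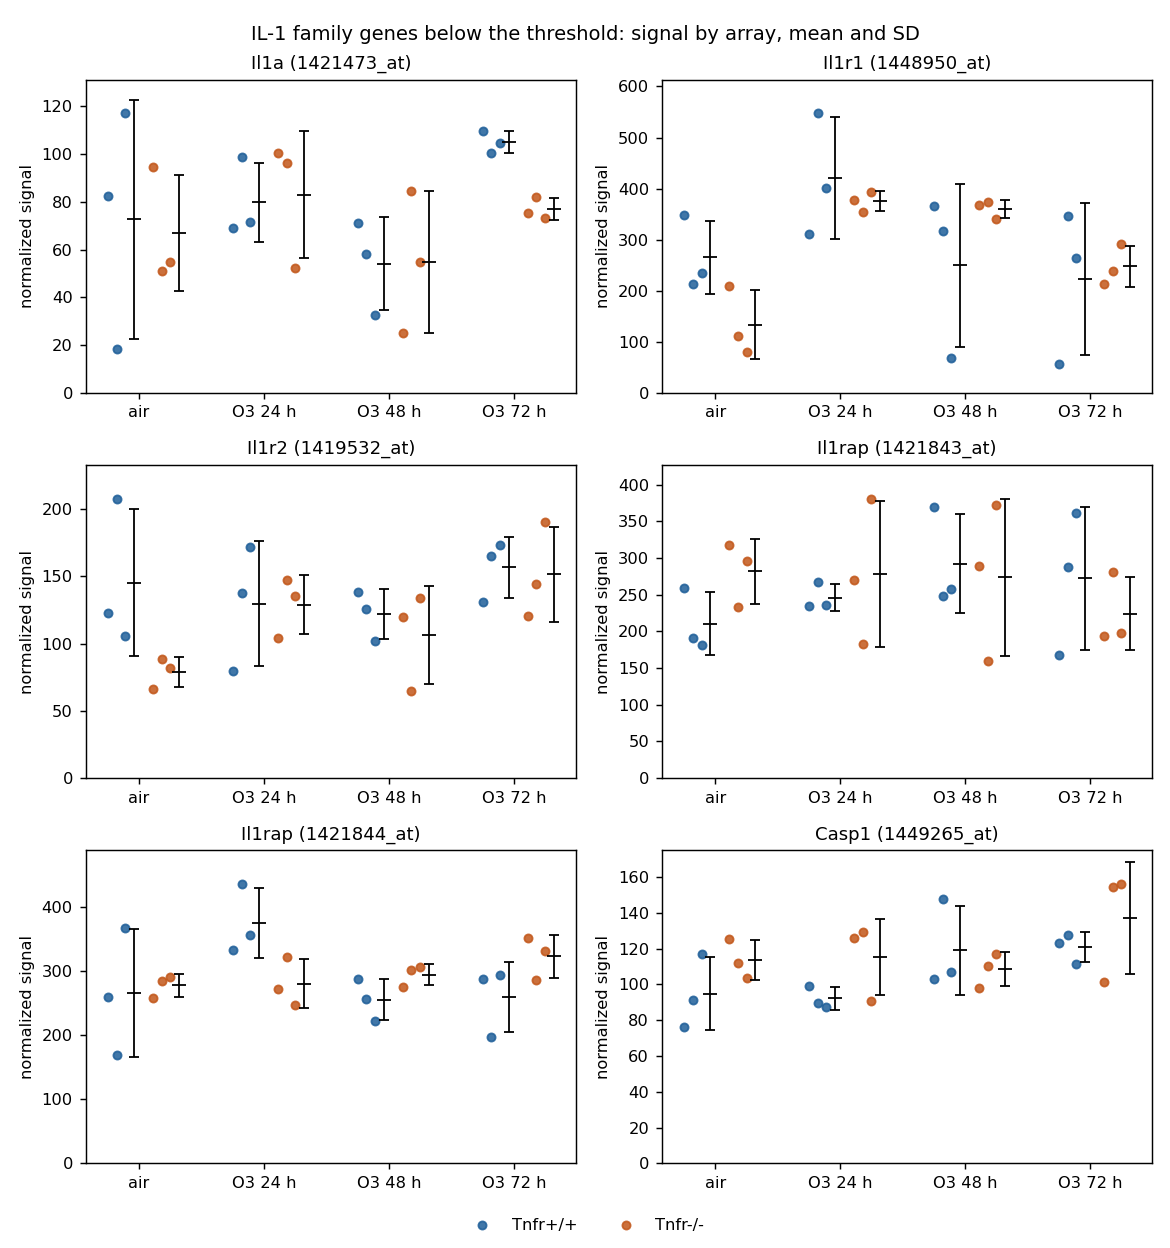
Quantile-normalized MAS5 signal (arbitrary units, y axis from 0) by exposure for Il1a, Il1r1, Il1r2, 2 probe sets of Il1rap and Casp1, 1 point per mouse, blue for Tnfr+/+ and orange for Tnfr-/-, with a black mean and SD bar (n = 3). Il1r1 and Il1r2 have their lowest means in Tnfr-/- air, and Il1r1 has single low Tnfr+/+ mice at 67.9 (48 h) and 57.2 (72 h).

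The members' calls were set against the share of all 20537 probe sets called in the same comparison. In Tnfr+/+ lungs 0.0828%, 1.17% and 3.1% of all probe sets were called at 24, 48 and 72 h, and of the 13 members 0, 1 (Il1rn) and 0. In Tnfr-/- lungs the shares were 1.1%, 3.83% and 3.96%, and of the members 1 (Il1b), 1 (Il33) and 2 (Il1b and Il33). For the mean of both genotypes they were 1.28%, 7.32% and 10.7%, and of the members 0, 2 (Il33 and Il1rn) and 4 (Il33, Il1b, Il18 and Il1rn). Every member called over air was higher in O3. The median log2 fold change of the 13 by the mean of both genotypes was 0.22 at 24 h, 0.27 at 48 h and 0.38 at 72 h, against -0.01, -0.03 and -0.03 over all probe sets, and 11, 12 and 11 of the 13 were above 0. Without the array that stood apart, the median at 72 h was 0.46 and 12 of the 13 were above 0. Without it, 2 members (Il33 and Il1rn) were called at 72 h in Tnfr+/+ lungs and 4 by the mean of both genotypes. The shares of all probe sets called in that fit were 2.54% and 12.5%. Several of the 13 read the same gene, so they are not independent.

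Between the genotypes the share called was 0.0876% in air, 1% at 24 h of O3, 0.166% at 48 h and 0.161% at 72 h, and of the 13 members 0, 1 (Il1b), 0 and 0. The mean of 4 exposures called 5.65% of all probe sets and 1 member, Il18. The interaction of genotype and O3 called 0.00974%, 0% and 0.00487% of all probe sets at 24, 48 and 72 h, and 0 members at each. In the 9 comparisons with 0 members called, the members at an unadjusted p under 0.05 in limma numbered 1 at 24 h and 3 at 72 h in Tnfr+/+ lungs over air, 3 at 24 h by the mean of both genotypes, 2, 3 and 1 between the genotypes in air and at 48 and 72 h, and 2, 2 and 0 for the interaction at the 3 times. For all probe sets, 5.89%, 17.9%, 11.7%, 6.92%, 10.8%, 11.1%, 6.22%, 5.51% and 5.31% passed it in the same comparisons. In the other 8, the members at that p numbered 2 at 48 h in Tnfr+/+ lungs (11.6% of all probe sets), 5, 4 and 4 at the 3 times in Tnfr-/- lungs (12.5%, 18.4% and 17%), 3 and 6 at 48 and 72 h by the mean of both genotypes (21.5% and 24.5%), 3 between the genotypes at 24 h (14%) and 4 by the mean of 4 exposures (22.5%). The methods' t-test with Benjamini-Hochberg adjustment called 0 members in each comparison of 2 single groups. The methods use it for O3 in Tnfr+/+ lungs and for the genotypes in air, and for the genotypes after O3 an analysis of variance, which was not run here.

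**Figure D3:**
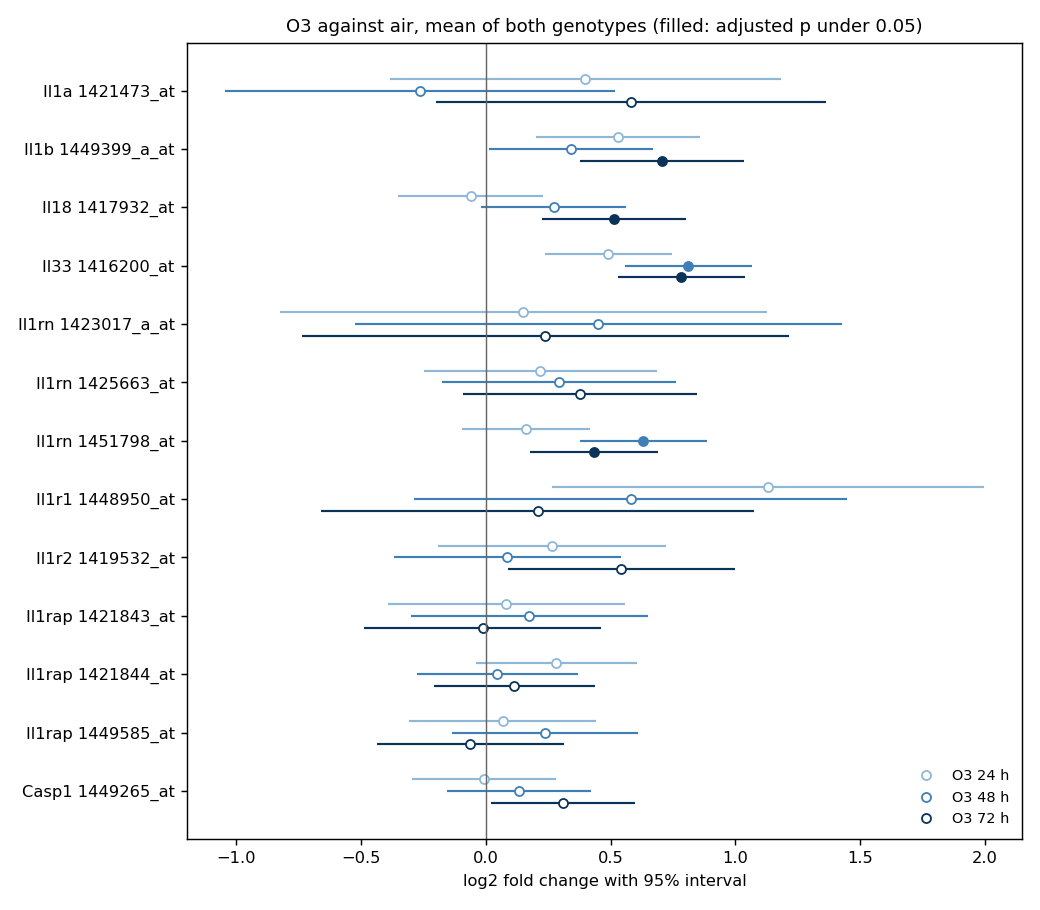
Log2 fold change of O3 over air by the mean of both genotypes for the 13 IL-1 family probe sets (x axis, with 95% intervals from limma), light to dark blue for 24, 48 and 72 h, filled where the adjusted p was under 0.05. Filled points are Il33 and the called Il1rn probe set (the last of the Il1rn rows) at 48 and 72 h and Il1b and Il18 at 72 h, all to the right of 0.

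**Figure D4:**
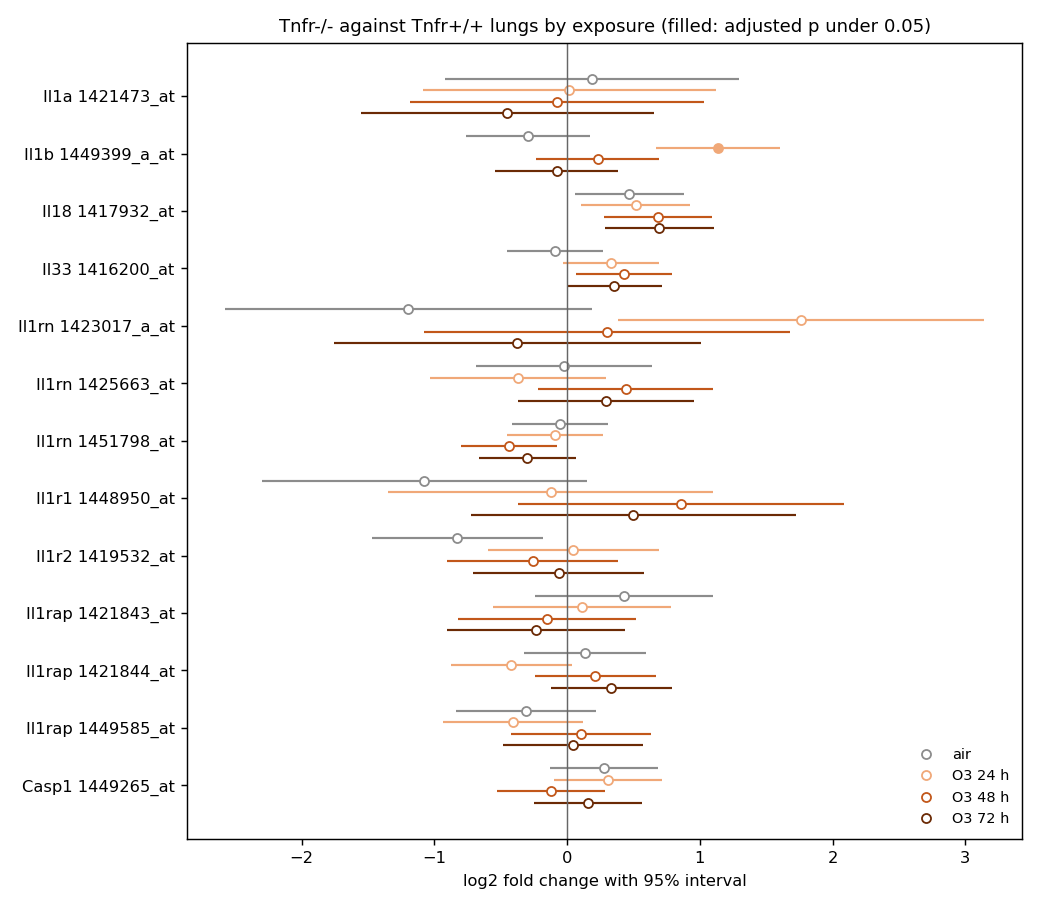
Log2 fold change of Tnfr-/- over Tnfr+/+ lungs in air and at 24, 48 and 72 h of O3 for the 13 probe sets (x axis, with 95% intervals from limma), filled where the adjusted p was under 0.05. The 1 filled point is Il1b at 24 h, and the 4 intervals of Il18 all lie to the right of 0.

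Genes whose pattern over the 24 arrays was most like that of a called member were found by Pearson's r of the log2 signals. The arrays share 8 groups and their O3 response, so r describes the pattern and carries no test. For Il33 they were Lrp2, the endocytic receptor megalin (r = 0.941), Lcn2, an acute phase protein (0.904), and Psat1, an enzyme of serine synthesis (0.891). Lrp2 read 333 to 448 in Tnfr+/+ air, 373 to 458 in Tnfr-/- air and 934 to 1262 in Tnfr-/- lungs at 48 h. For Il1b they were Lcp1 (0.774), Alox5ap (0.769) and Cd53 (0.767), genes of leukocytes. For Il18 they were Mcmbp (0.813), Tmem30a (0.789) and Gla (0.752), and for the called Il1rn probe set Marco (0.82), Ndufaf4 (0.813) and Mrpl51 (0.747). Marco read 115 to 136 in Tnfr+/+ air and 401 to 606 in Tnfr+/+ lungs at 48 h.

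**Figure D5:**
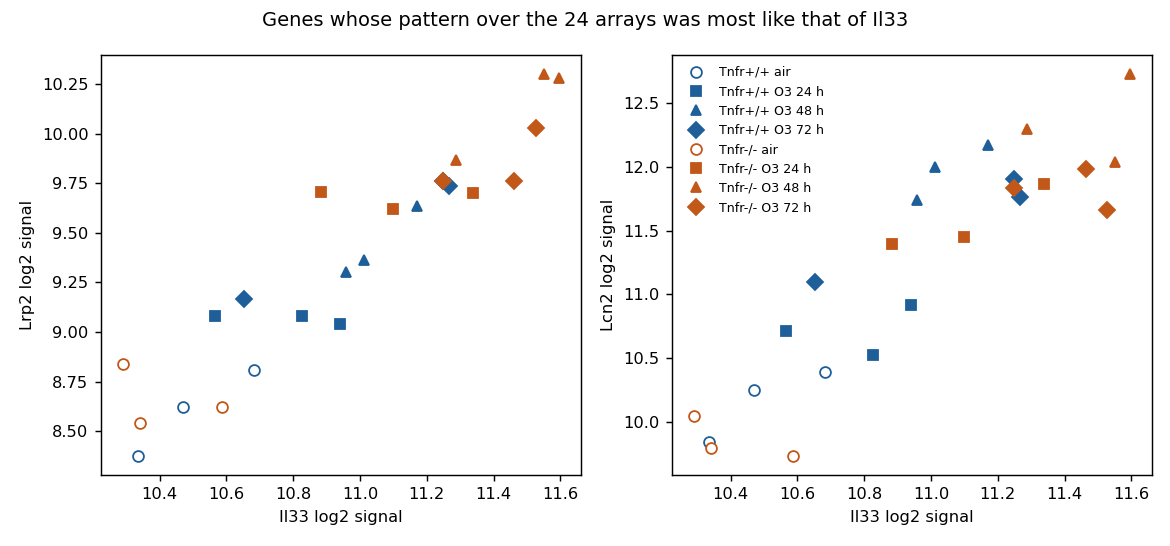
Log2 signal of Lrp2 (left) and Lcn2 (right) against that of Il33 on the 24 arrays, 1 point per mouse, blue for Tnfr+/+ and orange for Tnfr-/-, open circles for air and squares, triangles and diamonds for 24, 48 and 72 h of O3. Air mice lie at the lower left and Tnfr-/- mice at 48 h at the upper right in both panels (r = 0.941 and 0.904).

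Other genes of the pathway were taken from lists of ligands, receptors, processing and signalling, 1 probe set per gene. Of the 6 other ligands and binding proteins tested, Il1f9, an IL-36 ligand, rose in Tnfr-/- lungs at 24 h (log2 fold change 1.28, SE 0.31, adjusted p = 0.048) and Il18bp, which neutralizes IL-18, rose at 72 h (2.53, SE 0.69, adjusted p = 0.045). Of all probe sets 1.1% and 3.96% were called in Tnfr-/- lungs at 24 and 72 h. In the mean of both genotypes 0 of the 6 were called at any time in limma. Of 6 other receptors 4 were tested, and Il1rl2, the receptor of IL-36, rose at 72 h in Tnfr-/- lungs (1.76, adjusted p = 0.047) and by the mean of both genotypes (1.16, adjusted p = 0.035), where it was 1.31 (adjusted p = 0.023) without the array that stood apart. The shares of all probe sets called at 72 h were 3.96% in Tnfr-/- lungs and 10.7% by the mean of both genotypes.

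Of 18 genes of the inflammasome and of cytokine processing, 11 were tested. By the mean of both genotypes 1 of the 11 was called at 48 and at 72 h, a share near that of all probe sets (7.32% and 10.7%). It was Txnip, a thioredoxin-binding protein, with log2 fold changes of -0.56 (adjusted p = 0.036) and -0.58 (adjusted p = 0.024), the latter -0.44 (adjusted p = 0.048) without the array that stood apart. Cma1, a mast cell protease, was lower in Tnfr-/- lungs by the mean of 4 exposures (-0.31, adjusted p = 0.028), where 5.65% of all probe sets were called. Of 17 adaptors and kinases 13 were tested. By the mean of both genotypes 1, 2 and 1 of them were called at 24, 48 and 72 h, beside 1.28%, 7.32% and 10.7% of all probe sets. Myd88, the adaptor shared by the IL-1 and Toll-like receptors, rose at 24 h (0.43, adjusted p = 0.016) and 48 h (0.40, adjusted p = 0.0080) by the mean of both genotypes, whereas Tab1 fell at 48 h (-0.35, adjusted p = 0.013) and Ikbkb, a kinase of the NF-κB path, fell at 72 h (-0.44, adjusted p = 0.017, and -0.37, adjusted p = 0.035, without the array that stood apart).

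Of 18 genes that IL-1 commonly induces, all 18 were tested, and other cytokines induce them as well. By the mean of both genotypes 5 rose and 0 fell at 24 h, 6 rose and 1 fell at 48 h, and 5 rose and 1 fell at 72 h, with list medians of 0.37, 0.41 and 0.37 against -0.01, -0.04 and -0.05 over all genes. Of all probe sets 1.28%, 7.32% and 10.7% were called in the same comparisons. At 72 h 6 rose and 3 fell without the array that stood apart, among them all 6 called with it. The 3 added, named after their values were seen, were Ptgs2 (0.60), Nfkbia (-0.27) and Zc3h12a (-0.55). Saa3, an acute phase protein, rose by 1.52, 1.66 and 1.56, and Lcn2 by 1.13, 2.15 and 1.69. Il6, a cytokine of the acute phase, rose by 1.08, 0.99 and 1.05 (SE 0.22), and Ccl2, a monocyte chemokine, by 0.97, 0.97 and 0.68. Sele, an endothelial adhesion molecule, rose by 0.64 at 24 h and 0.72 at 48 h, and Icam1 by 0.30 at 48 h and 0.33 at 72 h. The gene that fell was Vcam1, an adhesion molecule (-0.67 at 48 h and -0.53 at 72 h). Between the genotypes, by the mean of 4 exposures, 1 of the 18 was higher in Tnfr-/- lungs, Ptgs2 (0.54, adjusted p = 0.030), and 3 were lower, the neutrophil chemokine gene Cxcl5 (-1.89, adjusted p = 0.0076), Saa3 (-0.64, adjusted p = 0.0039) and Vcam1 (-0.41, adjusted p = 0.011). That comparison called 5.65% of all probe sets.

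Of 15 type 2 genes that IL-33 commonly induces, 13 were tested. By the mean of both genotypes 3 rose and 0 fell at 24 h, 4 rose and 1 fell at 48 h, and 3 rose and 2 fell at 72 h, with list medians of 0.64, 1.05 and 0.71 against -0.01, -0.04 and -0.05 over all genes. The shares of all probe sets called were again 1.28%, 7.32% and 10.7%, and the 5 calls at 72 h held without the array that stood apart. Retnla, which macrophages of the alternative type and airway epithelium secrete, rose by 2.95, 3.45 and 3.35 (SE 0.14), and Ccl17, a chemokine for T helper cells, by 1.32, 1.77 and 1.56. At 24 h Retnla rose by 2.37 in Tnfr+/+ and by 3.54 in Tnfr-/- lungs, a split given for this gene alone. The interaction of genotype and O3 at 24 h called 2 of 20537 probe sets, and no genotype difference in the response of Retnla is read from these values. Chil3 rose by 1.05 at 48 h and 0.90 at 72 h, Arg1 by 2.27 at 48 h (adjusted p = 0.042), and Ccl22 by 1.29 at 24 h (adjusted p = 0.031). Rora, a nuclear receptor of type 2 innate lymphoid cells that other lung cells also express, fell by 0.29 at 48 h and 0.59 at 72 h, and Gata3, a type 2 transcription factor, fell by 1.31 at 72 h (adjusted p = 0.043). Icam1, Arg1, Ccl22 and Gata3 fall outside the naming rule and are named to complete these counts. Between the genotypes the mean of 4 exposures called 1 of the 13, a share near the 5.65% of all probe sets. It was Ccl17, lower in Tnfr-/- lungs (-0.35, adjusted p = 0.041), a call that ended without the array that stood apart (-0.33, adjusted p = 0.060).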

How the data were processed

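Per the labels, total RNA of the left lung of 1 mouse was hybridized to each of 24 arrays, and groups were taken from the labels. The authors deposited 1 intensity (MAS5 signal, linear scale) per probe set, made with MAS5 in Affymetrix Expression Console per the submitters' processing notes (no version given). Array medians were 212.9 to 247.5, no 2 arrays were identical, and 3 arrays in a group limit the precision.

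Quantile normalization over all 24 arrays, a floor of 1 and the log2 transform were then applied. The 64 control probe sets were left out, and a probe set was kept if it reached the 20th percentile in at least 1 array. One mean per group was fitted with limma 3.58.1 (lmFit, eBayes) in R 4.3.3, with 16 residual and 2.38 prior degrees of freedom, and 17 comparisons were tested with Benjamini-Hochberg adjustment over 20537 probe sets. The script was tested on simulated data. Probe sets were named through the array's annotation (20338 with 1 gene, 691 with several, 1551 not listed), and levels were never compared between probe sets. Promoter stretches came from the RefSeq table of GRCm38.p6.

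The text names all members and, of each other list and kind of comparison, at most 4 called genes in order of adjusted p, each by its brightest probe set, the 3 genes most like each called member, and the targeted genes. Members and lists were chosen with earlier results of these data known. Same-numbered mice of different groups did not deviate together (84 pairs, r from -0.181 to 0.115, median 0.00462), so the numbers do not pair them. Alternatives were the signals as deposited, cyclic loess, no filter, log2(signal + 32), only the arrays compared and array quality weights. Further ones were a trended and robust fit, a replicate block, an ordinary t-test with equal variances, the methods' unadjusted thresholds and leaving out each array. The methods name a t-test for O3 in Tnfr+/+ lungs and the genotypes in air, moderated per the figure legends. Here the ordinary one was run on all comparisons of 2 single groups.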

Additional observations from a re-analysis of the deposited data

How the results depend on the processing

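No call of Il33, Il1b, Il18 or Il1rn reversed under any alternative run. The number of member probe sets called for O3 over air in Tnfr+/+ lungs (1) was 0 with only the arrays compared. It was also 0 by the ordinary t-test after adjustment. With array quality weights, by the ordinary t-test without adjustment and by the methods' unadjusted p in limma it was 2. On leaving out 1 array it was 0 to 2. It was 0 without Tnfr+/+ air mouse 1 or 48 h mouse 3, and 2 without Tnfr+/+ 72 h mouse 1 or Tnfr-/- 24 h mouse 2. In Tnfr-/- lungs (2) it was 1, 5, 0, 4 and 4 under the settings named: only the arrays compared, weights, t-test adjusted, t-test unadjusted and unadjusted limma. Between the genotypes after O3 (1) it was 0 by the adjusted t-test, 5 by the unadjusted t-test and 5 by unadjusted limma, and 0 to 1 on leaving out 1 array (0 without Tnfr+/+ 24 h mouse 1 or 3). By unadjusted limma it was 2 in air (0), 4 for the mean of 4 exposures (1) and 4 for the interaction (0). With only the arrays compared, fewer arrays estimate the spread, and the genotype call of Il1b at 24 h ended (adjusted p = 0.24). For the other moves the cause was not tested. These counts are of members alone, without the share of all probe sets called under each setting. A move between settings therefore need not be particular to the members.

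With the replicate number as a block, the counts were unchanged: 1 in Tnfr+/+ lungs, 2 in Tnfr-/- lungs, 4 by the mean of both genotypes, and between the genotypes 0 in air, 1 after O3, 1 by the mean of 4 exposures and 0 for the interaction. The call of Il1b at 72 h in Tnfr-/- lungs ended under the block, without the filter on low signals and with only the arrays compared (adjusted p up to 0.057). The signals carry no counts, so depth is unknown, and the lowest probe sets (Il1a, the second of Il1rn and the third of Il1rap) lay below the 20th percentile on some arrays.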
